A study of Mus musculus with 20 samples.

Results

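The sex difference in gene expression of the aged mouse kidney was measured over 20364 autosomal genes, those on the 19 autosomes with more than 10 counts in at least 5 of the 10 kidney libraries at 25 months. They were chosen by this count minimum from 47415 autosomal genes in the tables, without use of the sex difference. Just inside, 621 genes were above 10 counts in exactly 5 libraries, with a median of 0.19 CPM (counts scaled by the size of the library), and just outside, 656 genes were above it in exactly 4, with a median of 0.156 CPM. The 2 groups were wild-type C57BL/6J females and males, an inbred strain kept by the NIA, labelled 25 months old (the series text gives a range of ages around this value), fed, with n = 5 animals each and no other treatment. The series also holds 10 libraries of 4-month mice of both sexes, used here to set the difference at 25 months beside that at 4 months. The cohort was made to follow expression in the kidney with age, and the comparison of the sexes within an age is part of its design.

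The mouse kidney is known for strong sexual dimorphism, most of it in the proximal tubule, the segment that reclaims filtered solutes and secretes organic anions and drugs. Androgens acting on their receptor in tubule cells keep many transporter and cytochrome P450 genes high in males, and other genes, such as those of some conjugating enzymes, are high in females. Because whole kidney was sequenced, fewer cells of a type and less RNA per cell cannot be told apart in any value below.

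Libraries at 25 months held between 50698175 and 78081191 counts, with 36.9% to 43.2% of them on mitochondrial genes. Within groups, log2 CPM of a library and its companions gave a median r over genes (no independent units) of 0.971 to 0.986. None of the 20 pairs of libraries within a group held identical values. All 10 libraries carried the sex-chromosome genes of their recorded sex, with at least 38506 Xist counts in females and at least 2969 Ddx3y counts in males, but Xist reached 342 counts in male replicate 5 and no more than 18 in any other male. Markers of tissues around the kidney also differed. The summed level of 16 adipocyte genes was 7096, 2779.8, 2795, 5275 and 3778 CPM in female replicates 1 to 5 and 1430.0, 2753, 1173, 1263 and 1371 CPM in male replicates 1 to 5. These sums did not overlap (exact permutation test, two-sided, p = 0.00794, the smallest this design allows, adjusted p = 0.0265 over 10 checks). Without Pck1, Cfd, Lpl, Nnat and Scd1, which kidney cells also express, the other 11 genes summed to 1454, 224, 22.1, 880.4 and 116 CPM in female replicates 1 to 5 and 14.1, 220.4, 26.7, 67.5 and 32.7 CPM in male replicates 1 to 5. The sexes then overlapped, male replicate 2 being above 2 females (exact permutation test, two-sided, p = 0.103, with genes left out after the data were seen). The defining marker Ucp1, of brown fat, spanned 417, 34.2, 0.433, 255 and 19.6 CPM in female replicates 1 to 5 and 0, 47.1, 0.0145, 0.0260 and 0.0432 CPM in male replicates 1 to 5, so the females overlapped the males. Urothelial genes summed to 83.7, 27.4, 14.7, 63.1 and 1.93 CPM in female replicates 1 to 5 and 3.22, 28.5, 1.87, 3.04 and 1.67 CPM in male replicates 1 to 5 (exact permutation test, p = 0.111, adjusted p = 0.185). The 5 adrenal genes tested summed to 16.1 to 20.2 CPM in females and 20.8 to 29.5 CPM in males, without overlap (exact permutation test, p = 0.00794, adjusted p = 0.0265). Most of this sum was Fdx1, which other tissues also express, at 13.4, 12.98, 14.7, 14.6 and 17.1 CPM in female replicates 1 to 5 and 19.5, 18.3, 24.1, 18.2 and 27.5 CPM in male replicates 1 to 5. The defining gene Cyp11a1, under the count minimum, had 79 counts over the females and 23 over the males. Of these the highest female library held 57 and the highest male library 11. The part of these tissues in the sex differences was not tested.

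Between the sexes, 1674 of the 20364 autosomal genes (8.22%) differed with an adjusted p under 0.05 in edgeR's quasi-likelihood test at 25 months. Males were higher in 1087 genes (5.34%) and females in 587 (2.88%). In 1339 of the called genes the 2 sexes did not overlap in any library, 924 with males higher and 415 with females higher, where 8.65% of all autosomal genes did not overlap, 5.73% with males and 2.93% with females higher. The median log2 difference of all autosomal genes (female minus male throughout, so that negative values are higher in males) was 0.04, and the median size among called genes was 0.86. Of all autosomal genes, 392 (1.92%) were called with at least 2-fold higher levels in males and 291 (1.43%) in females. Differences of at least 8-fold were found in 79 genes higher in males and 36 higher in females. Without adjustment of p, 4858 genes were under 0.05.

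The excess of male-higher calls turned when no scaling factor was used. Scaling by library totals alone moved the median of all genes from 0.04 to 0.15 and gave 883 female-higher and 708 male-higher genes. With relative log expression factors 591 genes were higher in females and 1105 in males, and with upper-quartile factors 663 and 991. DESeq2 called 2886 genes, 1253 of them higher in females and 1633 in males. The count was 992 without male replicate 3, 1025 without male replicate 5, 1024 without female replicate 4 and 711 without female replicates 1 and 4 together, a choice made after the data were seen. With the summed adipocyte markers (the 11 genes above) or urothelial markers as a covariate, also chosen after the data were seen, 609 and 619 genes were called. These sums were on average 467 and 30.5 CPM higher in females. Each covariate thus shares variation with sex, adds a parameter to a small fit, and can remove calls whatever the tissue content. A call lost with a covariate, here and below, does not tell tissue from sex. The 19 autosomes all held calls in both directions.

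**Figure D1:**
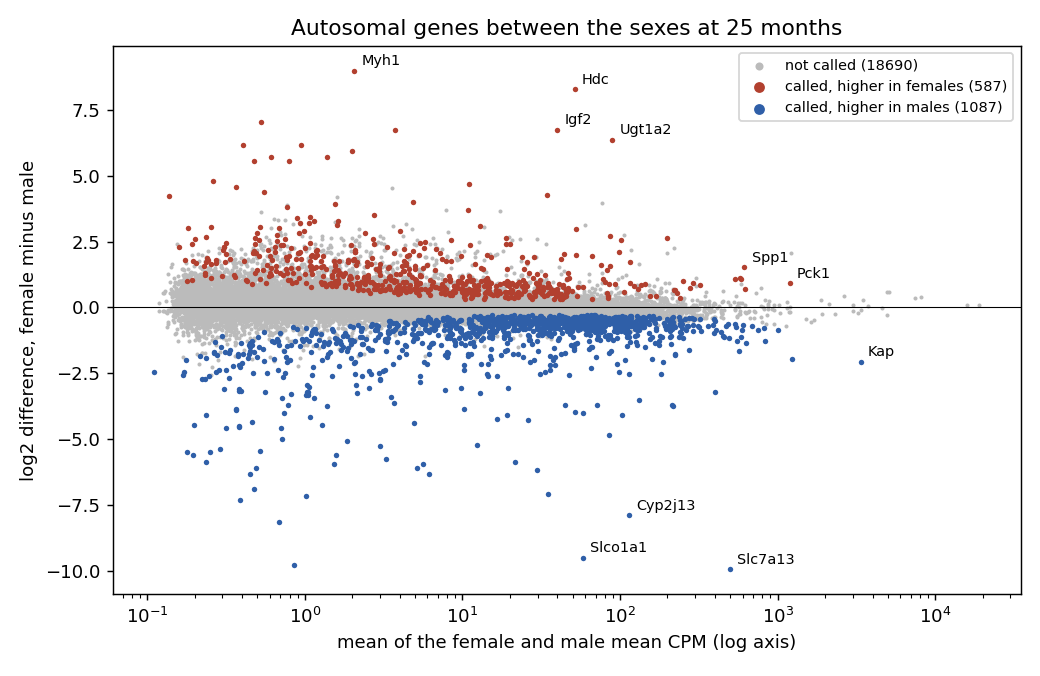
Log2 difference (female minus male, vertical) against the mean CPM of both sexes (horizontal, log axis) for 20364 autosomal genes at 25 months, with 587 genes called higher in females in red and 1087 called higher in males in blue. Slc7a13, higher in males, stands at -9.95 and Hdc, higher in females, at 8.29, and genes at or near 0 counts in one sex, such as Myh1, are drawn at fitted values that are no bounds.

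The largest differences were in genes close to silent in one sex. Slc7a13, a cystine and glutamate transporter of the last proximal tubule segment (S3), had 1.24, 0.653, 1.11, 0.442 and 1.59 CPM in female replicates 1 to 5 and 1065, 1236, 569, 419.9 and 1689.5 CPM in male replicates 1 to 5. All males were above all females, although male replicates 3 and 4 were lower than the other males. The fold between the means was 989.7 (log2 difference -9.95 ± 0.57, SE, adjusted p = 1.83e-06). Slco1a1, an organic anion transporter gene (chr6:141907282-141946962, mm10), stood at 0.293, 0.0167, 0.162, 0.249 and 0.0593 CPM in female replicates 1 to 5 and 116, 189, 75.3, 35.4 and 165 CPM in male replicates 1 to 5, a log2 difference of -9.52 ± 0.65 (SE, adjusted p = 9.07e-06). The male level again varied, and replicate 4 was the lowest male. Cyp2j13, of a cytochrome P450 family that oxidises arachidonate, measured 1.17, 0.553, 1.16, 0.773 and 1.11 CPM in female replicates 1 to 5 and 276, 279, 233, 99.3 and 249.8 CPM in male replicates 1 to 5, with a log2 difference of -7.89 ± 0.37 (SE, adjusted p = 4.74e-07). Male replicate 4 was apart from the other 4 males in Cyp2j13, yet every male exceeded every female by a wide margin in this gene.

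Next among the male-higher genes were Pzp, a protease inhibitor of the alpha-2-macroglobulin family (log2 difference -7.09 ± 0.39, SE, adjusted p = 1.28e-06), Cyp4a12a, an arachidonate omega-hydroxylase regulated by androgen (-6.16 ± 0.29, SE, adjusted p = 4.74e-07), and the carboxylesterase gene Ces1g (-5.96 ± 0.39, SE, adjusted p = 6.43e-06). Cyp4a12a was measured at 0.981, 0.971, 0.988, 0.704 and 0.430 CPM in female replicates 1 to 5 and 67.2, 74.1, 62.03, 34.1 and 54.6 CPM in male replicates 1 to 5. None of the females reached the lowest male. Of the transcription factor gene Neurog2 no female library held a count, and it was at least 37.2-fold higher in males, which had 3.20, 1.48, 0.667, 1.20 and 1.96 CPM. Mpped1, coding for a metallophosphoesterase, was at least 30.2-fold higher in males (1 female library held 1 count and the other 4 held none). These low levels rest on few reads, and a library without a count could still hold up to 3. These 8 genes kept their call in every alternative run for them, each library left out in turn included.

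Among the female-higher genes, Hdc, which codes for histidine decarboxylase, the enzyme that makes histamine, had 61.1, 39.8, 72.6, 203 and 139 CPM in female replicates 1 to 5 and 0.191, 0.256, 0.290, 0.546 and 0.317 CPM in male replicates 1 to 5. The females were widely spread, replicates 4 and 5 highest, and did not overlap the males. The means were 322-fold apart (log2 difference 8.29 ± 0.56, SE, adjusted p = 7.83e-06). The mast cell markers Cpa3, at 0.585, 0.670, 0.0947, 0.207 and 0.0297 CPM in female replicates 1 to 5 and 0, 0.433, 0.0435, 0.208 and 0.0144 CPM in male replicates 1 to 5, and Kit overlapped between the sexes (adjusted p = 0.508 and 0.492). Hdc was the only gene called of the 9 tested of the 15 in the mast cell and histamine list. The other members were under the count minimum and were not tested. Summed over the females and over the males, Cma1 had 63 and 32 counts, Mcpt4 58 and 20, and Tpsb2 29 and 10. Fcer1a had 8 and 1, Hrh4 5 and 1, and Tpsab1 1 and 0. In these unscaled counts the highest female library held 23 of those for Cma1, 20 for Mcpt4 and 14 for Tpsb2. Igf2, the imprinted insulin-like growth factor gene, measured 32.2, 37.6, 101, 74.9 and 149 CPM in female replicates 1 to 5 and 0.626, 1.08, 0.652, 0.572 and 0.763 CPM in male replicates 1 to 5, a log2 difference of 6.75 ± 0.49 (SE, adjusted p = 1.28e-05). Female replicates 1 and 2 were the lowest females. An antisense gene, Igf2os, overlaps its exons, and whether strand was used in counting is not stated.

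The conjugating enzyme gene Ugt1a2 stood at 151, 187, 180.0, 171 and 191 CPM in female replicates 1 to 5 and 0.817, 0.807, 0.985, 6.24 and 1.64 CPM in male replicates 1 to 5. Females were uniform and the males were near 1 CPM except replicate 4, with a log2 difference of 6.37 ± 0.61 (SE, adjusted p = 9.63e-05). It shares exons with other Ugt1a genes, so its counts are uncertain. Slc17a2, of the phosphate and organic anion transporter family, had 3.72, 2.41, 9.86, 7.98 and 13 CPM in female replicates 1 to 5 and 0.0348, 0.0787, 0.116, 0.0910 and 0.0144 CPM in male replicates 1 to 5, a log2 difference of 6.74 ± 0.61 (SE, adjusted p = 7.17e-05). Its female replicates 1 and 2 were again lowest. Tmprss6, a membrane serine protease gene, showed the same order, with 1.08, 0.871, 5.64, 5.44 and 6.57 CPM in females and a log2 difference of 5.93 ± 0.87 (SE, adjusted p = 0.00194). Atp13a4, a P-type ATPase gene, was even among the females, at 2.36, 2.96, 2.67, 2.73 and 2.80 CPM, against 0.0870, 0.0590, 0.0435, 0.0260 and 0.0432 CPM in males (log2 difference 5.70 ± 0.28, SE, adjusted p = 6.77e-07). Myh1, a myosin gene of skeletal muscle, was at least 86.4-fold higher in females, where it had 2.87, 0.536, 4.37, 5.67 and 7.02 CPM.

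**Figure D2:**
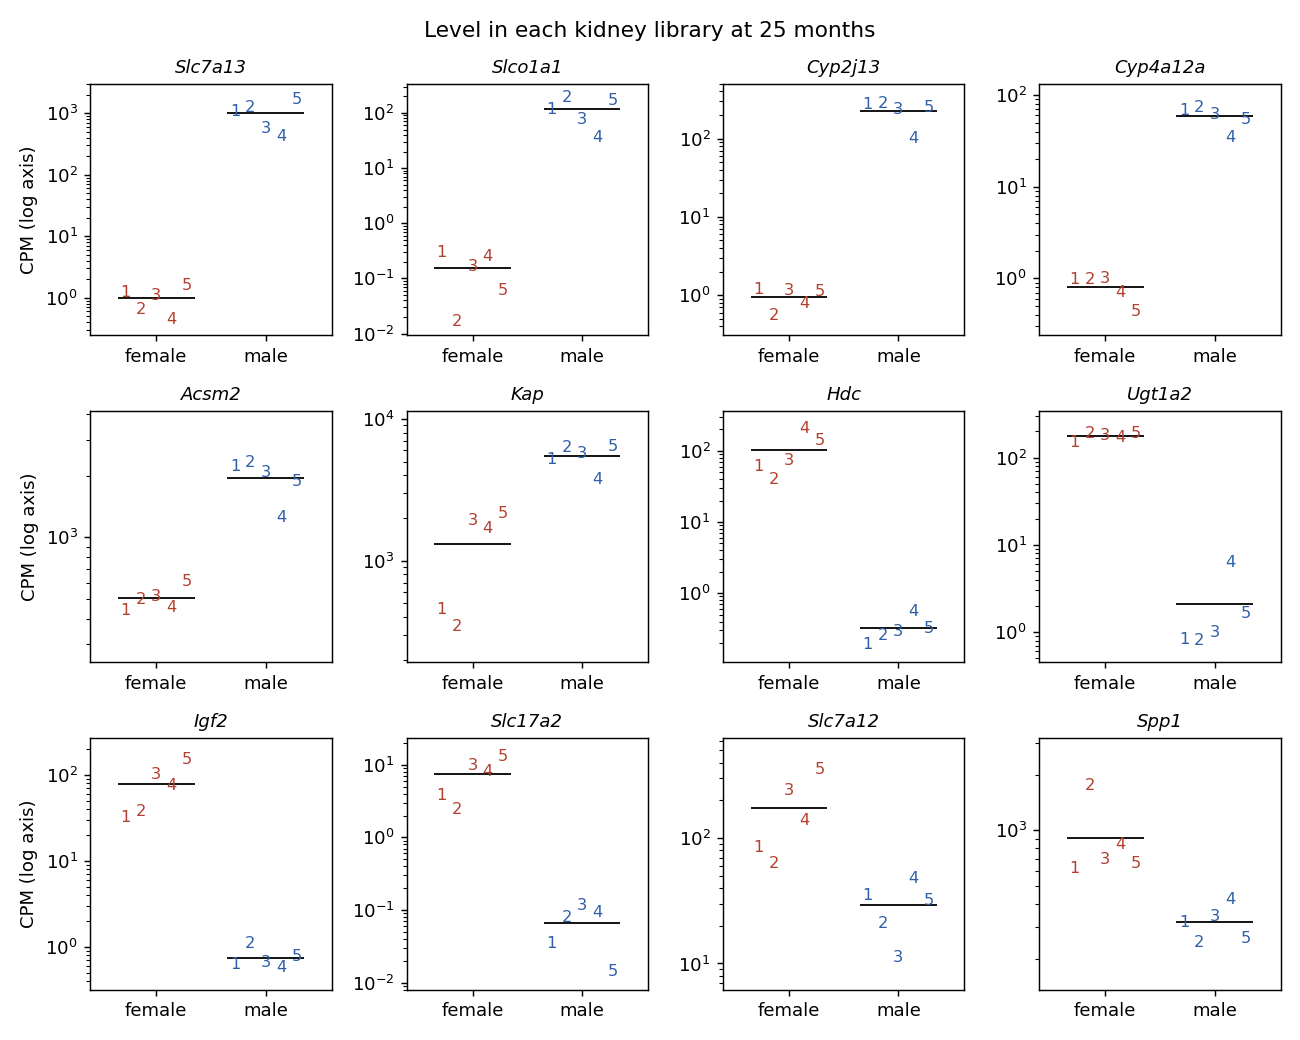
CPM (log axis) of 12 autosomal genes in each kidney library at 25 months, females in red and males in blue, with the replicate number as the point and the group mean as a line. The sexes do not overlap in any of the 12 genes. Male replicate 4 is the lowest male for Slc7a13, Slco1a1, Cyp2j13, Cyp4a12a, Acsm2, Kap and Igf2 and the highest male for Hdc, Ugt1a2, Slc7a12 and Spp1. Female replicates 1 and 2 are the lowest females for Kap, Hdc, Igf2, Slc17a2 and Slc7a12.

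Differences also reached genes with the most counts. Kap, the kidney androgen-regulated protein and a classical androgen target, had 451, 344, 1909, 1688 and 2136 CPM in female replicates 1 to 5 and 5189, 6302, 5667, 3713 and 6338 CPM in male replicates 1 to 5. Female replicates 1 and 2 held far less than the other females, and the sexes did not overlap (log2 difference -2.06 ± 0.48, SE, adjusted p = 0.0226). The call was lost without male replicate 5 (adjusted p = 0.0537), without female replicates 1 and 4, and with either marker covariate. Acsm2, an acyl-CoA synthetase of the mitochondria, had 439.6, 495, 514, 456 and 612 CPM in female replicates 1 to 5 and 2235, 2316, 2086, 1246 and 1871 CPM in male replicates 1 to 5, with a log2 difference of -1.96 ± 0.18 (SE, adjusted p = 7.95e-05). Further abundant male-higher genes were Akr1c21 (277 ± 59.3 CPM in females and 865 ± 95.4 CPM in males, SD, n = 5 each), a hydroxysteroid dehydrogenase gene, Cyp2j5 (log2 difference -0.86 ± 0.15, SE, adjusted p = 0.00555), Ass1, of arginine synthesis (-1.33 ± 0.20, SE, adjusted p = 0.00218), Zbtb20, a transcriptional repressor gene (-1.29 ± 0.21, SE, adjusted p = 0.00327), and Selenop, of selenium transport (-1.12 ± 0.14, SE, adjusted p = 0.000665). Cyp2j5 was not called with the adipocyte covariate or without female replicates 1 and 4.

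Of the abundant female-higher genes, Pck1, the key enzyme of gluconeogenesis, had 1589, 1525, 1622, 1171 and 1919.6 CPM in female replicates 1 to 5 and 910.3, 864, 770.0, 834 and 757 CPM in male replicates 1 to 5, a log2 difference of 0.92 ± 0.14 (SE, adjusted p = 0.0022). All females exceeded all males. Spp1, coding for osteopontin, stood at 621, 1764, 696, 837 and 658 CPM in female replicates 1 to 5 and 317, 246, 339.8, 424 and 259 CPM in male replicates 1 to 5 (log2 difference 1.53 ± 0.29, SE, adjusted p = 0.00918). Female replicate 2 was far above the others, and the call was lost with the adipocyte or urothelial covariate. Aadat, an aminotransferase gene of lysine and kynurenine breakdown, measured 189, 131, 526, 412 and 452 CPM in female replicates 1 to 5 and 74.1, 44.5, 43.3, 45.2 and 65.7 CPM in male replicates 1 to 5, with a log2 difference of 2.65 ± 0.37 (SE, adjusted p = 0.00129). Here too female replicates 1 and 2 were the lowest females, at levels above every male.

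Neighbouring genes of one family differed in opposite directions. The Slc22a family codes for organic anion and cation transporters, and of its 24 members tested 7 were called higher in males and 2 in females. Chromosome 19 held 9 of them, with 4 called higher in males and 2 in females. Slc22a30 had 3.84, 1.96, 7.40, 5.76 and 9.52 CPM in female replicates 1 to 5 and 171, 182, 165, 92.1 and 219 CPM in male replicates 1 to 5, a log2 difference of -4.86 ± 0.41 (SE, adjusted p = 4.85e-05), and Slc22a28 had -3.69 ± 0.34. Slc22a29, which lies between these, had 28.1, 30.03, 31.04, 25.7 and 47.5 CPM in female replicates 1 to 5 and 2.90, 3.50, 8.25, 6.76 and 4.43 CPM in male replicates 1 to 5, a log2 difference in the other direction of 2.65 ± 0.29 (SE, adjusted p = 0.000291). Slc22a19 was higher in females by 1.91 ± 0.44 (SE, adjusted p = 0.022) and lost its call without female replicate 4 or male replicate 5 (adjusted p up to 0.0537). These genes are related copies, and the treatment of reads with several matches is not given, so their separate levels are uncertain.

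Because these neighbours differed in opposite directions, the 250 bases before the start sites of the 4 genes are printed 5′ to 3′ on the gene's strand, from RefSeq on GRCm38.p6. Capitals mark the motifs found on either strand: AGAACA, the half-site of androgen and glucocorticoid receptors, and TTCNNNGAA, a STAT site. Also searched were CAAAGTCCA, of HNF4A, and the oestrogen receptor palindrome.
Slc22a28 (male-higher, chr19:8131983-8132232, minus strand): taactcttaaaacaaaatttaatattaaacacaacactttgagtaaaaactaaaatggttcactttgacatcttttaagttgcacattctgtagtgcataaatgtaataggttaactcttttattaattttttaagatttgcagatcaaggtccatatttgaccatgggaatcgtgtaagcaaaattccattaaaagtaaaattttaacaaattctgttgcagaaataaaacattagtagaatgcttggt
Slc22a30 (male-higher, chr19:8405106-8405355, minus strand): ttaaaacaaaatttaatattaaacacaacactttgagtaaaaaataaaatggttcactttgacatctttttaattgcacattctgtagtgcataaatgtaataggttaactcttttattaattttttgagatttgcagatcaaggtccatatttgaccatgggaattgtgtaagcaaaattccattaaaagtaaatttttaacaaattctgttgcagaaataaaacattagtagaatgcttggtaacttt
Slc22a29 (female-higher, chr19:8218901-8219150, minus strand): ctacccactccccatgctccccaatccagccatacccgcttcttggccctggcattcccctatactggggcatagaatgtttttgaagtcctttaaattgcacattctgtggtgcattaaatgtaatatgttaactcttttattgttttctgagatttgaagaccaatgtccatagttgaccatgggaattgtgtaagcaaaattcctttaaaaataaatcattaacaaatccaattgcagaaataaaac
Slc22a19 (female-higher, chr19:7711311-7711560, minus strand): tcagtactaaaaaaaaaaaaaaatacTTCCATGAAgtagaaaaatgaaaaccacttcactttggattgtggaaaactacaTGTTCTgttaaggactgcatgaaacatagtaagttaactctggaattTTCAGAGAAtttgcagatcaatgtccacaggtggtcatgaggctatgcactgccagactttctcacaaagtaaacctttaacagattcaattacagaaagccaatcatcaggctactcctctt
The 2 male-higher genes shared 93% of aligned positions, against 65.1% and 62.7% between Slc22a29 and each of them and 50.9% between Slc22a29 and Slc22a19. The half-site letters were found once and TTCNNNGAA 2 times in Slc22a19, and neither in the other 3 windows. Over the 15334 windows of autosomal genes tested (12041 of 20364 genes had one), 11.4% held AGAACA, against 13.1% of the 1003 windows of male-higher genes and 13.5% of the 572 of female-higher genes. TTCNNNGAA was in 6.1%, 4.89% and 6.12% of these windows, CAAAGTCCA in 0.385%, 0.997% and 0.35%, and the palindrome in 1 window. A match is a description of these letters and does not show binding.

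Other clusters were mixed in the same way. All 4 Ugt2b genes tested on chromosome 5, of glucuronide conjugation, were called, Ugt2b37 (-5.86 ± 0.47, SE, adjusted p = 2.94e-05), Ugt2b38 (-3.51 ± 0.42, SE, adjusted p = 0.000445) and Ugt2b5 (-3.27 ± 0.37, SE, adjusted p = 0.000336) higher in males and Ugt2b34 (1.84 ± 0.15, SE, adjusted p = 3.4e-05) in females. In the Akr1c family of steroid and aldehyde reductases on chromosome 13, 6 of 7 genes were called, 3 in each direction, although Akr1c14 (-2.18 ± 0.60, SE, adjusted p = 0.0481) lost its call in 9 of 10 fits with 1 library left out (adjusted p up to 0.105). Akr1c20 was higher in females by 2.36 ± 0.44 (SE, adjusted p = 0.00741) although its replicate 2 overlapped the males. Akr1c18, which breaks down progesterone, had 0.912, 1.74, 7.81, 27.2 and 8.31 CPM in female replicates 1 to 5 and 1.03, 0.0787, 0.290, 0.767 and 0.705 CPM in male replicates 1 to 5 and lost its call without male replicate 3 or 5 (adjusted p up to 0.061). All 4 Acsm genes were called, 3 higher in males. The Acsm1 call, in the other direction (1.06 ± 0.26, SE, adjusted p = 0.0303), was lost without female replicate 3 or 4 or any one of male replicates 1 to 4 (adjusted p up to 0.0739).

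On chromosome 12 the genes Serpina1a to Serpina1e, copies of the alpha-1-antitrypsin gene, were all higher in males, from -2.58 ± 0.35 (Serpina1a) to -1.73 ± 0.39 (Serpina1d). Serpina1d lost its call in 4 of 10 fits with 1 library left out (adjusted p up to 0.0579) and Serpina1e without female replicate 4 (adjusted p = 0.0507). Serpina1a had 8.99, 13.7, 23.9, 12.8 and 9.01 CPM in female replicates 1 to 5 and 97.4, 48.1, 53.4, 138 and 72.8 CPM in male replicates 1 to 5. Liver makes most of this inhibitor, and the summed level of 12 liver markers, Serpina1a to Serpina1c included, was 559.9 to 1039 CPM in females and 931 to 1327 CPM in males (exact permutation test, p = 0.0317, adjusted p = 0.0794). Of liver markers under the count minimum, the highest male library held 151 of 167 male counts for Cps1, 107 of 109 for Mup20 and 86 of 92 for Ahsg. For Tat it was 40 of 47 and for Mup3 33 of 40. The highest female library held 15 of 48, 2 of 3, 12 of 48, 14 of 29 and 22 of 52 female counts in the same order of genes. The part of liver tissue in the Serpina1 differences was not tested. Within the Ugt1a locus, Ugt1a7c was higher in males (-1.73 ± 0.19, SE, adjusted p = 0.000227) beside the female-higher Ugt1a2. Of the glutathione transferases Gsta4 was higher in females, with 91.5, 91.1, 90.4, 106 and 90.03 CPM in female replicates 1 to 5 and 9.18, 15.6, 11.7, 13.3 and 9.21 CPM in male replicates 1 to 5 (log2 difference 2.99 ± 0.15, SE, adjusted p = 9.2e-07), an even level within each sex, while none of the 8 Gstm genes was called.

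**Figure D3:**
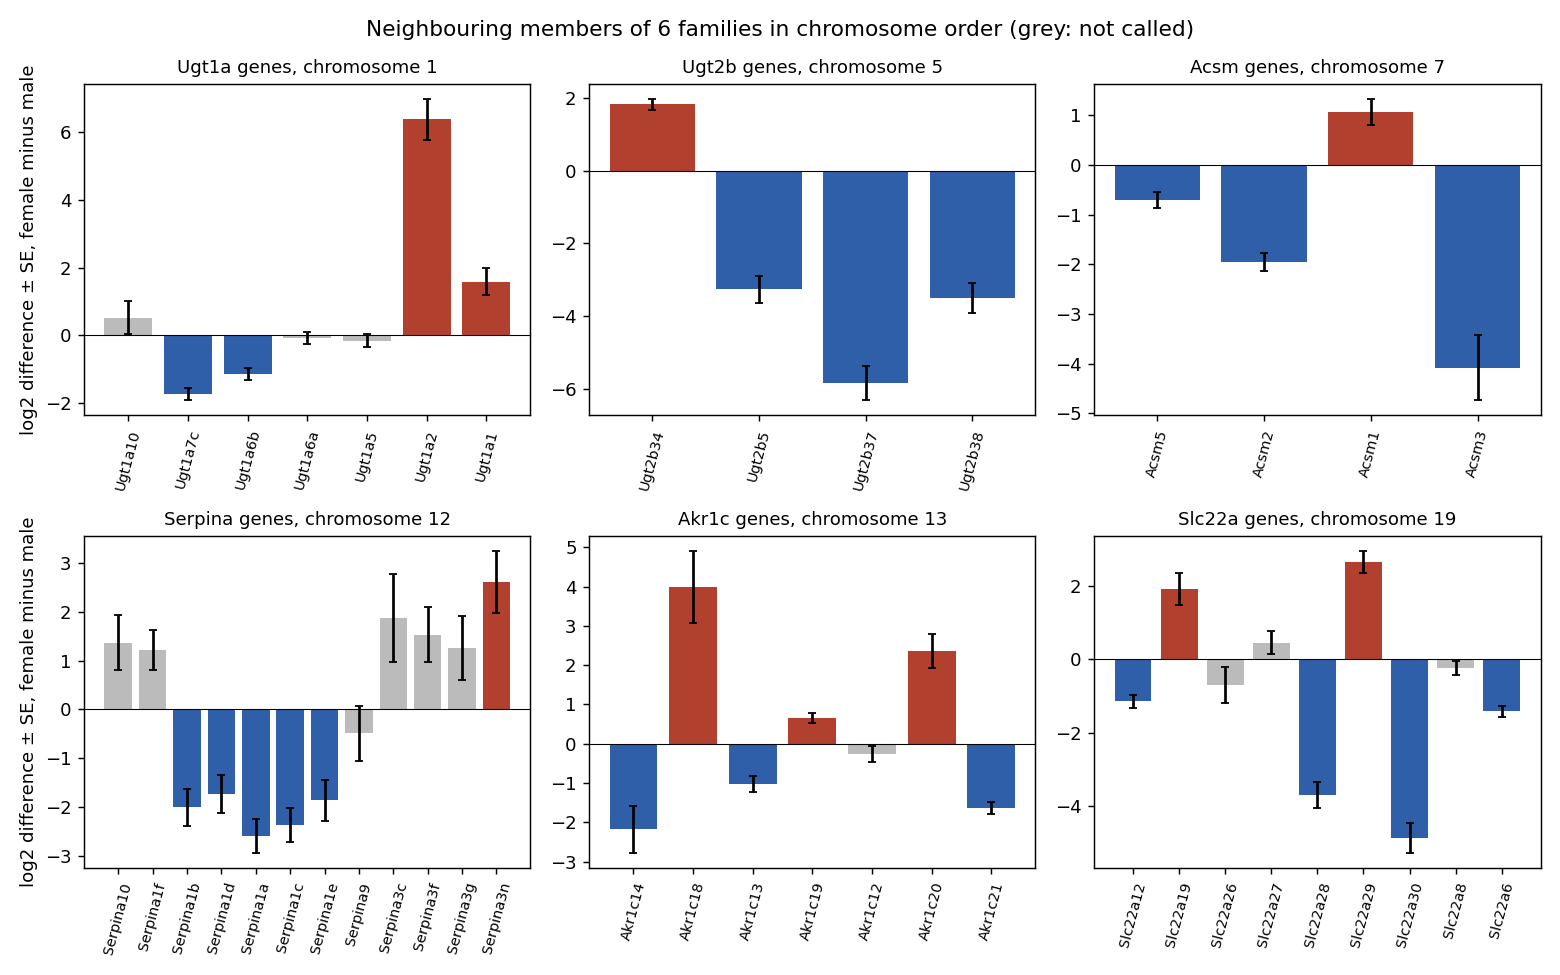
Log2 difference ± SE (female minus male) at 25 months of neighbouring members of 6 gene families in chromosome order, with genes called higher in females in red, higher in males in blue and not called in grey. Opposite directions stand side by side, as for Slc22a29 (2.65) between Slc22a28 (-3.69) and Slc22a30 (-4.86).

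Gene lists were described by their calls, beside the 2.88% and 5.34% of all autosomal genes called higher in females and in males. The lists were written from general knowledge with earlier results of these data known, so their counts are no independent support. Of 15 genes listed in this way as male-biased in mouse kidney 14 were higher in males, with a median of -4.08. The other was Gusb, at -0.25 ± 0.21 (adjusted p = 0.505), and Odc1, an androgen-induced gene of polyamine synthesis, was close to the threshold (adjusted p = 0.0471) and lost its call in 8 of 10 fits with 1 library left out (adjusted p up to 0.118). Of 10 genes listed in the same way as female-biased 6 were higher in females, Cyp2d12 was higher in males, and the median was 2.16. Slc7a12, an amino acid transporter gene, had 84.5, 62.3, 239.8, 138 and 349.6 CPM in female replicates 1 to 5 and 35.1, 20.96, 11.1, 47.7 and 31.7 CPM in male replicates 1 to 5 (log2 difference 2.58 ± 0.51, SE, adjusted p = 0.0104). The member Cyp4a14 had 134, 164, 167, 101 and 146 CPM in female replicates 1 to 5 and 38.2, 26.3, 46.98, 179.7 and 28.6 CPM in male replicates 1 to 5 and was not called (1.15 ± 0.49, SE, adjusted p = 0.177). Male replicate 4 reached the female range in Cyp4a14, and without it the gene passed. The male-biased list summed to 746, 699, 2216, 1968 and 2456 CPM in female replicates 1 to 5 and 8895, 10153, 8810, 5612 and 10695 CPM in male replicates 1 to 5. The female-biased list summed to 897, 698, 1394, 1095 and 1578 CPM in females and 637, 536, 653, 866 and 672 CPM in males. Male replicate 4 was thus the lowest male in the first sum and the highest in the second. Prlr, the prolactin receptor gene, had 118, 107, 263, 179 and 223 CPM in female replicates 1 to 5 and 46.95, 30.97, 31.4, 108 and 49.2 CPM in male replicates 1 to 5, where male replicate 4 lay between female replicates 1 and 2, with a log2 difference of 1.74 ± 0.37 (SE, adjusted p = 0.0165).

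Of 22 steroid metabolism genes tested 10 were higher in males, 3 in females and 9 were not called. Hsd17b11 (-1.36 ± 0.13, SE, adjusted p = 8.47e-05), a 17-beta-hydroxysteroid dehydrogenase gene, and Cyp7b1 (-4.24 ± 0.48, SE, adjusted p = 0.000336), an oxysterol hydroxylase gene, were among the male-higher genes. The female count was 1 without male replicate 3 or 5 and with the adipocyte covariate. Of 11 receptors and cofactors 2 were called, the oestrogen receptor gene Esr1, higher in males at 8.93, 6.80, 9.11, 10.1 and 8.06 CPM in female replicates 1 to 5 and 17.1, 14.7, 11.6, 16.2 and 15.4 CPM in male replicates 1 to 5 (-0.80 ± 0.14, SE, adjusted p = 0.00428), and the glucocorticoid receptor gene Nr3c1. The count was 1 on leaving out any one library other than female replicate 5, male replicate 2 or male replicate 4, with either covariate, and without female replicates 1 and 2 or 1 and 4. In the growth hormone, prolactin and STAT5 axis 5 of 21 genes were higher in females, such as Socs2, a feedback inhibitor of cytokine receptors (1.98 ± 0.27, SE, adjusted p = 0.00112), and Igfals, which carries insulin-like growth factors (2.05 ± 0.38, SE, adjusted p = 0.00756). Igf1r (-0.74 ± 0.13, SE, adjusted p = 0.00555) and Igfbp4 were higher in males, calls that were lost with the adipocyte covariate, and 1 was left with the urothelial covariate or without female replicates 1 and 4. The female count was 8 with DESeq2 and with a block for the library number, and 3 with either covariate or without female replicates 1 and 4.

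Organic anion and cation transporters held 16 male-higher and 6 female-higher genes of 44. The female count was 3 without female replicate 4 or male replicate 5. Slc22a6, the basolateral organic anion transporter OAT1, had 76.1, 93.2, 103, 102 and 109 CPM in female replicates 1 to 5 and 286, 267, 295, 175 and 267 CPM in male replicates 1 to 5 (-1.42 ± 0.15, SE, adjusted p = 0.000218). The efflux pump gene Abcc3 went the other way, at 24.1, 16.3, 84.1, 92.5 and 109 CPM in female replicates 1 to 5 and 2.59, 5.79, 2.14, 4.16 and 2.22 CPM in male replicates 1 to 5 (4.27 ± 0.57, SE, adjusted p = 0.000932), with female replicates 1 and 2 lowest among the females. Of 54 other xenobiotic enzymes 18 were higher in males and 6 in females, and 9 and 4 without female replicates 1 and 4. With the adipocyte and the urothelial covariate 8 and 7 were higher in males. Cyp2e1, which oxidises ethanol and small solvents, had 30.5, 35.04, 26.1, 39 and 19.5 CPM in female replicates 1 to 5 and 409.7, 398, 497, 297 and 412 CPM in male replicates 1 to 5 (-3.75 ± 0.21, SE, adjusted p = 1.42e-06). Ugt8a, of galactolipid synthesis, differed by -3.96 ± 0.21 (SE, adjusted p = 1.11e-06). In gluconeogenesis and amino acid catabolism 10 of 37 genes were higher in males, such as Gpt (-1.17 ± 0.16, SE, adjusted p = 0.0013), and 5 in females, such as the mitochondrial arginase gene Arg2 (3.09 ± 0.35, SE, adjusted p = 0.000336). The male count was 5 with either covariate or without female replicates 1 and 2, and 6 without female replicates 1 and 4. Fatty acid oxidation genes numbered 5 higher in males and 2 higher in females of 33. The male count was 3 on leaving out female replicate 1, 4 or 5 or male replicate 1, 3 or 4, and the female count was 0 without female replicate 4, male replicate 3 or male replicate 5 and 1 without female replicate 1, male replicate 1 or male replicate 4. DESeq2 called 5 in each direction. Either covariate left 2 male-higher and 0 female-higher genes, and the counts were 3 and 1 without female replicates 1 and 2 and 4 and 0 without female replicates 1 and 4.

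By tubule segment, 7 of 26 genes of proximal S1 and S2 transport were higher in males and 1 in females, a male count that fell to 3 without female replicate 1, female replicate 4 or male replicate 5, and to 4 without male replicate 3. The female call was lost without female replicate 2 or 4 or male replicate 1, 2 or 5. The defining genes Slc5a2, the glucose transporter SGLT2 (-0.44 ± 0.18, SE, adjusted p = 0.171), and Lrp2, the receptor megalin (0.059 ± 0.23, SE, adjusted p = 0.908), were not called. The S3 list had 7 of 20 higher in males and 1 in females, and that female count was 4 without female replicate 2 and 2 without female replicate 1 or male replicate 4. Of 30 transcription factors of the proximal tubule 5 were higher in males and 3 in females, the latter 1 without female replicate 1 or male replicate 1, 3 or 5 and 5 without female replicate 5. Hnf4g (-1.30 ± 0.17, SE, adjusted p = 0.000981) and Nr1h4, the bile acid receptor FXR (-1.14 ± 0.15, SE, adjusted p = 0.000981), were higher in males. The distal convoluted and connecting tubule list was one-sided, with 6 of 21 genes higher in females and none in males. Slc12a3, the thiazide-sensitive sodium chloride cotransporter, had 543, 905, 748, 667 and 991 CPM in female replicates 1 to 5 and 509, 512, 467, 459.8 and 399.6 CPM in male replicates 1 to 5 (0.72 ± 0.16, SE, adjusted p = 0.0205), female replicate 1 being nearest to the males. Slc8a1, a sodium-calcium exchanger gene (0.67 ± 0.11, SE, adjusted p = 0.00298), Calb1, of cytosolic calcium binding (0.76 ± 0.14, SE, adjusted p = 0.00797), and Atp2b4, a calcium pump gene (0.56 ± 0.094, SE, adjusted p = 0.00439), were also higher in females. DESeq2 and limma-voom each called 2 members of this list higher in males as well. The library-number block also gave 2. With either covariate or without female replicates 1 and 4, S1 and S2 transport had 3 male-higher genes, and the transcription factors had 3 male-higher and 1 female-higher. Without female replicates 1 and 2, S1 and S2 transport had 4 male-higher genes, S3 had 5 female-higher and the transcription factors had 1 female-higher. DESeq2 and the block each called 11 S1 and S2 genes higher in males, and DESeq2 called 4 S3 genes higher in females.

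**Figure D4:**
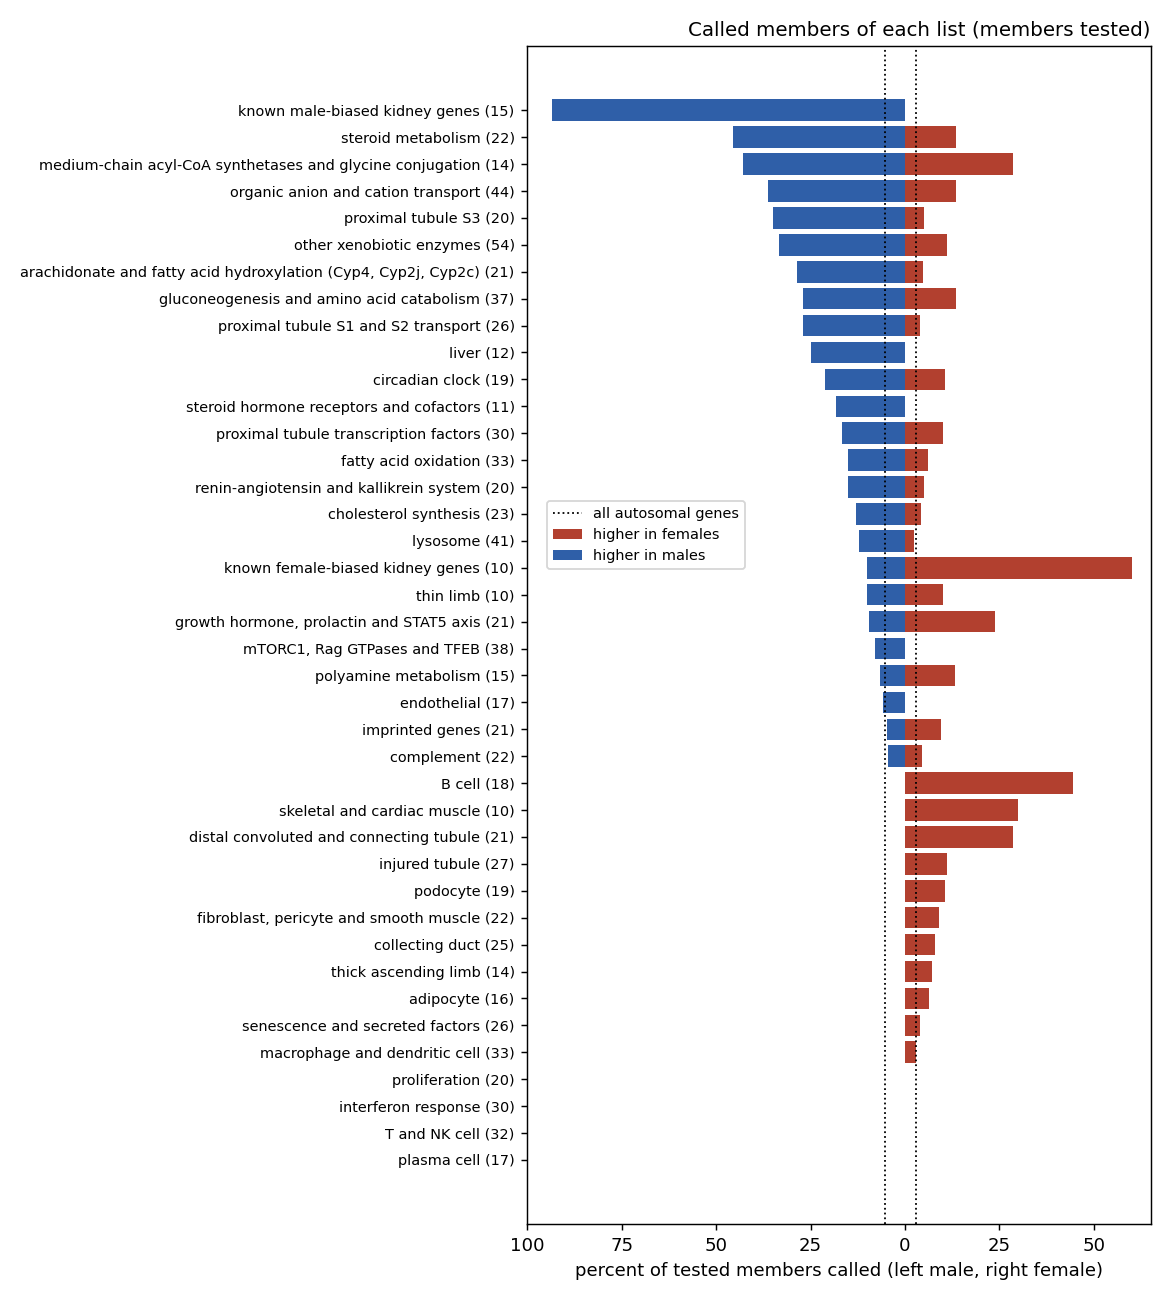
Percent of tested members called higher in males (blue, left) and in females (red, right) at 25 months for each list with at least 10 members tested (number in brackets), with dotted lines at 5.34% and 2.88%, the shares of all autosomal genes. Most metabolic and proximal tubule lists hold more male than female calls. The B cell, distal convoluted tubule, collecting duct, podocyte, injured tubule and muscle lists are among those with female calls only.

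Markers of immune cells gave a split picture. Of 18 B cell genes 8 were higher in females and none in males, with a median of 2.41. The defining gene Ms4a1, coding for CD20, had 3.56, 6.43, 14.9, 10.4 and 0.401 CPM in female replicates 1 to 5 and 0.870, 0.551, 2.45, 0.546 and 0.345 CPM in male replicates 1 to 5 (2.90 ± 0.80, SE, adjusted p = 0.0474). Female replicate 3 was the highest and female replicate 5 lay within the male range. Ms4a1 kept its call only without female replicate 5 or male replicate 3 (adjusted p up to 0.112 without another library). The count of 8 was unsteady, at 4 without female replicate 1 or male replicate 3, 3 without female replicate 3, female replicate 4, male replicate 1 or male replicate 2, 2 without male replicate 4, 1 without male replicate 5 and 14 without female replicate 5. It was 0 without female replicates 1 and 4 or with the urothelial covariate, 3 without female replicates 1 and 2, 2 by limma-voom, 12 with the library-number block and 14 by DESeq2. By edgeR 0 of 17 plasma cell genes, 0 of 32 T and NK cell genes, 0 of 30 interferon response genes and 0 of 20 proliferation genes were called. At an unadjusted p under 0.05 these lists held 4, 1, 3 and 10 genes, DESeq2 called 2, 1, 3 and 4, and limma-voom 0, 0, 1 and 3. Without female replicate 5 edgeR called 2 plasma cell, 1 T and NK cell and 7 proliferation genes higher in females and 1 interferon response gene higher in males. Without male replicate 4 it called 1 plasma cell and 1 interferon response gene higher in females.

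Skeletal and cardiac muscle genes summed to 56.2, 57.6, 80, 44.2 and 49.5 CPM in female replicates 1 to 5 and 18.6, 23.3, 30.4, 22.04 and 17.9 CPM in male replicates 1 to 5, with no overlap (exact permutation test, p = 0.00794, adjusted p = 0.0265). Of the 10 tested, Myh1, Pvalb (1.21 ± 0.21, SE, adjusted p = 0.00461) and the giant sarcomere gene Ttn (1.27 ± 0.24, SE, adjusted p = 0.00816) were higher in females, and Pvalb is also a gene of the distal convoluted tubule. The muscle creatine kinase gene Ckm was under the count minimum, with at most 2 counts in a female library and 0 in males. Of other members under it, Myh2 had 160 counts over the females and 0 over the males, and Mb 74 and 1. Tnni2 had 70 and 20, Myl7 39 and 9, and Myh4 24 and 1. Myh6 had 56 and 30, Myh7 40 and 31, Atp2a1 22 and 14, Tnnt3 21 and 19, and Actc1 21 and 20. Tnnc2, with 0 and 4, and Myl2, with 2 and 3, went the other way. The highest female library held 53 of the Myh2 and 35 of the Mb counts. In the injured tubule list 3 of 27 genes were higher in females, Clu (1.43 ± 0.25, SE, adjusted p = 0.00571), Spp1 and Krt7, none of which kept its call with the urothelial covariate. The count was 6 without female replicate 5, 10 with DESeq2 and 1 with the adipocyte covariate, and 2 genes of the list were called higher in males without female replicate 2. Krt7 lost its call in 8 of 10 fits with 1 library left out (adjusted p up to 0.0974). The injury markers Havcr1, coding for KIM-1 (1.51, 25.3, 3.38, 4.65 and 1.45 CPM in female replicates 1 to 5 and 10.7, 5.51, 3.74, 4.38 and 8.49 CPM in male replicates 1 to 5), and Lcn2 (2.56 ± 0.91, adjusted p = 0.112) were not called, and female replicate 2 was the highest library in both.

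The study centres on mTORC1, the nutrient-sensing kinase complex that Rag GTPases bring to lysosomes. Of 38 genes of mTORC1, Rag GTPases and TFEB 3 (beside 8.22% called of all autosomal genes) were higher in males, Fnip2 (-0.77 ± 0.16, SE, adjusted p = 0.0115), Sqstm1 and Castor2, and none in females, with 1 left without male replicate 3 or 5 and without female replicates 1 and 2 or 1 and 4. DESeq2 called 5 higher in males and 1 in females. Castor2 lost its call on leaving out any one library other than female replicate 5 or male replicate 4, Sqstm1 without male replicate 3, 4 or 5, and none of the 3 was called with either marker covariate. Rragc, the gene of RagC, had 68.7, 75.4, 58.1, 54.6 and 81.9 CPM in female replicates 1 to 5 and 71.5, 81.3, 79.5, 65.1 and 99.9 CPM in male replicates 1 to 5 (-0.23 ± 0.14, SE, adjusted p = 0.357). Tfeb overlapped as well (0.034 ± 0.14, SE, adjusted p = 0.915). The summed level of the 38 genes was 1255 to 1529 CPM in females and 1604 to 1689 CPM in males, without overlap. This sum was not tested. Among 41 lysosomal genes 5 were higher in males and 1, Cln3, in females, a call that was kept only without female replicate 5 or male replicate 4. The male count was 2 with either covariate or without female replicates 1 and 4, and 3 without female replicates 1 and 2. Galns, which degrades keratan sulphate, had 11.2, 12.6, 18.5, 19.2 and 21.3 CPM in female replicates 1 to 5 and 74.7, 59.9, 59.3, 46.9 and 61.3 CPM in male replicates 1 to 5 (-1.86 ± 0.19, SE, adjusted p = 0.000153), and the sialidase gene Neu1 differed by -0.95 ± 0.15 (SE, adjusted p = 0.00281). The senescence gene Cdkn1a was at 8.64, 11.9, 8.84, 8.04 and 5.44 CPM in female replicates 1 to 5 and 9.30, 10.7, 9.61, 6.97 and 6.79 CPM in male replicates 1 to 5, a log2 difference of -0.018 ± 0.20 (SE, adjusted p = 0.972). Of 26 senescence genes tested 1, Mmp2, was called, higher in females (beside 8.22% of all autosomal genes). It lost its call in 6 of 10 fits with 1 library left out (adjusted p up to 0.0833). Under the count minimum, Cdkn2a had 80 counts over the females and 13 over the males, Il6 54 and 12, and Ccl20 35 and 6. Il1a had 37 and 23, Ccl4 61 and 41, Cxcl2 51 and 29, and Ccl3, in the other direction, 39 and 52. In these unscaled counts the highest female library held 36 of those for Cdkn2a, 24 for Il6 and 13 for Ccl20. For Il1a it held 23, for Ccl4 33, for Cxcl2 22 and for Ccl3 19.

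To place these values beside younger animals, the sexes were compared at 4 months over the same genes in their own 10 libraries. There 4127 genes (20.3%) were called. Of the 1674 calls at 25 months 1124 were also called at 4 months in the same direction, 67.1% of the older and 27.2% of the younger list, and 1 in the opposite direction. Whether called at 4 months or not, 1612 of the 1674 had the same direction there. The number called at each age depends on the spread within its own 10 libraries, so these counts do not compare the size of the difference between ages. The difference between the sex effects was tested directly in all 20 libraries. By edgeR 0 genes passed (0%), with 2382 at an unadjusted p under 0.05, while DESeq2 called 143 and limma-voom 16, and without 25-month female replicate 5 edgeR called 81, without replicate 3 of that group 6 and without 25-month male replicate 4 1. The lowest adjusted p was 0.0679. Atp13a4 had 2.27 ± 0.368 CPM in females and no count in any male at 4 months, so that its fitted difference there is no bound, and 2.65 ± 0.219 CPM in females and 0.0506 ± 0.0224 CPM in males at 25 months (SD, n = 5 each, scaled over 20 libraries). Hsd11b1, which reactivates glucocorticoid, differed by -1.41 ± 0.14 at 4 months and 0.086 ± 0.19 at 25 months. Aldh1a1, of retinoic acid synthesis, had 0.51 ± 0.18 at 4 months and -0.88 ± 0.16 at 25 months. Rex2, a zinc finger gene, went from -2.002 ± 0.22 to -3.73 ± 0.26, and all 4 stood at this lowest adjusted p. A p that misses the threshold does not show that the sex differences at the 2 ages were alike.

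**Figure D5:**
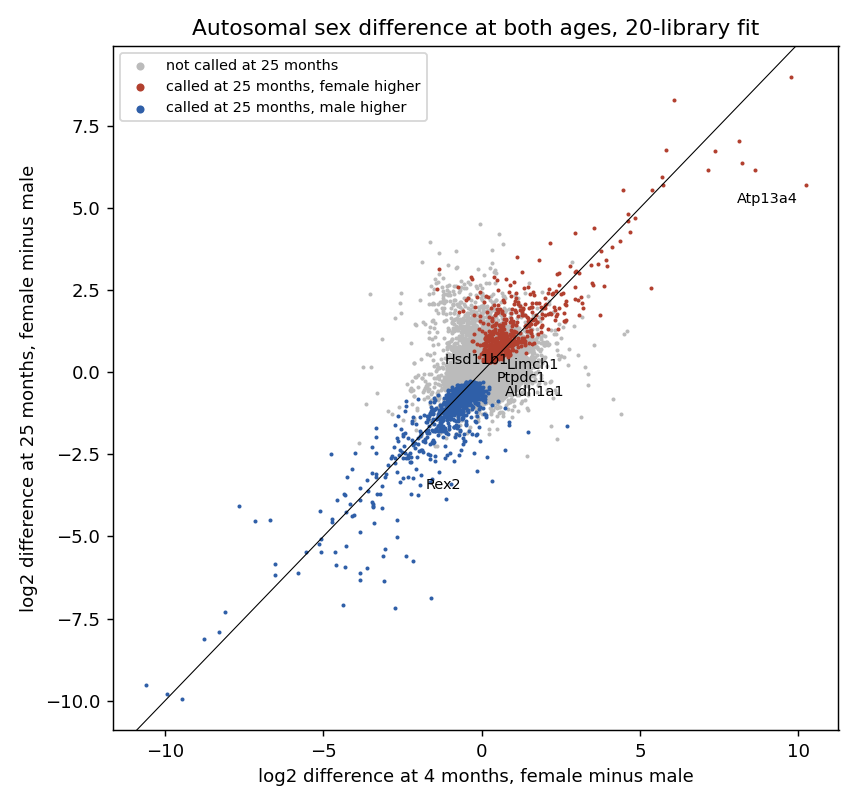
Log2 difference between the sexes (female minus male) at 25 months (vertical) against 4 months (horizontal) for 20364 autosomal genes from the fit of 20 libraries, with genes called at 25 months in colour, a line of equality and the 6 genes of lowest interaction p named. Rex2 lies below the line and Hsd11b1 above it, Atp13a4 is drawn at a fitted value because no male at 4 months held a count, and no gene passed the edgeR test of the difference.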

How the data were processed

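Kidney RNA from 20 mice was sequenced as stranded total RNA, and 10 of the libraries, 5 female and 5 male at 25 months, carry the comparison. The deposited values are raw read counts per gene, made by the authors with STAR 2.7.8a on mm10 with an Ensembl annotation and featureCounts 2.0.1. Strand and multiple-alignment settings of the counting are not given in the sources used here, which leaves overlapping genes and near-identical copies uncertain.

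Genes with more than 10 counts in at least 5 of the 10 libraries were kept on all chromosomes (21153, of which 20364 autosomal). Sexes were compared with edgeR 4.0.16 (quasi-likelihood test, TMM scaling, R 4.3.3) with Benjamini-Hochberg adjustment over all 21153 genes and a threshold of 0.05. The age by sex term was fitted in 20 libraries. Standard errors come from the F statistic and are approximate. CPM use the scaled library sizes. Where every library of a sex held at most 3 counts, its mean was replaced by a floor of 3 counts per library. This gives the bounds on folds and covers counting error only. DESeq2 1.42.0 and limma 3.58.1 were alternatives. The adipocyte covariate leaves out Pck1, Cfd, Lpl, Nnat and Scd1. Library sums were compared by exact permutation tests, two-sided (scipy 1.17.1). Figures used matplotlib 3.10.9.

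Genes, lists and alternatives were chosen with earlier results of these data known, and the 2 defining markers of each cell list after values were seen. Named genes were the 10 largest and 10 most abundant called differences in each direction without overlap, up to 4 called and 2 defining members per list, the 6 of lowest interaction p, and members of families with at least 3 calls. Prlr, Cyp2d12, Cln3, Cyp4f14, Cry1 and Nr1d2 are called members of their lists named outside that rule, after their values were seen. The members of the mast cell, senescence, liver and muscle lists under the count minimum were also named outside it, after their counts were seen. On simulated counts (20814 genes, 196 changed) edgeR recovered 39.8% of genes changed by 1 and 91.8% of those changed by 2 on the log2 scale, and 9.79% of its calls were unchanged genes. DESeq2 recovered 58.2% and 92.9%, with 24.5% of its calls unchanged genes, and limma-voom 37.8% and 88.8%, with 6.06%. For the age by sex term (21093 genes, 200 changed) edgeR recovered 31% and 75%. Unchanged genes were there 5.36% of edgeR calls, 14.7% of DESeq2 calls and 6.25% of limma-voom calls. No label states the relation of the animals to one another beyond separate samples, so p-values measure the spread between these samples. Some genes of the lists are counted in the totals and not reported here by name.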

Additional observations from a re-analysis of the deposited data

Results flagged for a closer look

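Of 400 groups of 5 libraries examined, named genes and library checks by sex, 48 held a library apart from the other 4 of its sex by the gap test. Its rate of about 1 in 20 by chance is for independent, normally spread values. It is no measure here, since genes vary together and some flagged groups, such as Gm28818 in males, held 0 CPM in 4 libraries. Male replicate 4 was the highest male for Ugt1a2 at 6.24 CPM, G630018N14Rik at 0.0780 CPM, Cyp4a14 at 179.7 CPM, Cebpd at 5.58 CPM, Cd3e at 3.56 CPM, Cd8a at 3.20 CPM, Ccl2 at 1.53 CPM and Hsd3b4 at 611 CPM and the lowest male for Cyp2j13 at 99.3 CPM, Slc22a6 at 175 CPM and Ugt8a at 64.9 CPM. Female replicate 2 was the highest female for Spp1 at 1764 CPM, Cyp7b1 at 3.82 CPM, Cyp4b1 at 125 CPM, Bdkrb2 at 3.40 CPM, Havcr1 at 25.3 CPM, Lcn2 at 32.2 CPM, Adgre1 at 17.1 CPM, C3 at 561 CPM and Ccl2 at 2.26 CPM and the lowest female for Akr1c20 at 0.787 CPM. Male replicate 2 was the highest male for Gusb at 22.6 CPM, Lum at 4.94 CPM, Ucp1 at 47.1 CPM, Upk1b at 5.96 CPM, Upk3a at 1.85 CPM, the summed adipocyte markers at 2753 CPM and the summed urothelium markers at 28.5 CPM. Male replicate 3 was the highest male for Gm28818 at 0.0290 CPM, Slc26a1 at 72.9 CPM, Prcp at 29.9 CPM and Ms4a1 at 2.45 CPM and the lowest male for Nfe2l1 at 113 CPM and Bdkrb2 at 0.261 CPM.

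Female replicate 3 was the highest female for Igkc at 505 CPM, Serpina1c at 21.2 CPM, Serpina1b at 21.4 CPM, Serpina1d at 41.6 CPM and Serpina1e at 13.3 CPM. Female replicate 4 was the highest female for Mpped1 at 0.0138 CPM, Gsta4 at 106 CPM and Akr1c18 at 27.2 CPM. Female replicate 5 was the highest female for Slc22a29 at 47.5 CPM, Slc7a8 at 115 CPM and Limch1 at 67.1 CPM. Female replicate 1 was the highest female for Ugt8a at 9.36 CPM and Aldh1a1 at 44.8 CPM. Male replicate 1 was the highest male for Mpped1 at 2.68 CPM. Whether these libraries differ in tissue sampled or in the animals was not tested.

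A transgene entry in the count tables, which no comparison used, held 1062 counts in female replicate 1, against 4 to 53 in the other libraries at 25 months and 3 to 59 at 4 months, although all mice were labelled wild type.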

How the results depend on the processing

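The 1674 calls between the sexes (587 higher in females, 1087 in males) became 2886 (1253 and 1633) with DESeq2, 2849 (1214 and 1635) with all 20 libraries and a mean per group, 1591 (883 and 708) with library totals, 2664 (1066 higher in females) with a block for the library number, and 683 (291 and 392) at a log2 difference of at least 1. Among alternatives chosen after seeing the data they became 609 (212 and 397) with the adipocyte covariate, 619 (229 and 390) with the urothelium covariate, 926 (351 and 575) without female replicates 1 and 2, and 711 (242 and 469) without female replicates 1 and 4. Leaving out 1 library at a time gave 992 to 2229 calls, 298 to 864 higher in females and 694 to 1365 in males. The age by sex term gave 143 genes with DESeq2, 16 with limma-voom and 0 to 81 with 1 library left out. With 1 library left out, the differences of the sums ranged from -404 to -284 CPM for liver, -2.50 to -1.28 percentage points for mitochondrial reads and 19.1 to 39.6 CPM for urothelium, and these 3 changed side of 0.05. The adipocyte difference was 467 CPM (exact permutation test, p = 0.103) without the 5 genes kidney cells also express. The causes of these changes were not tested. Of 153 called genes chosen by the naming rule, none changed direction under any alternative, and 113 kept their call in all 10 fits with 1 library left out. No paired analysis was possible because the labels pair no animals. The block above groups libraries by low, mid and high ranges of the number in their names, whose meaning is not stated, and pairs no replicates.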

Other observations

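The arachidonate and fatty acid hydroxylase list had 6 of 21 genes higher in males and 1, Cyp4f14, in females, the latter 2 without female replicate 5 or male replicate 4 and with DESeq2 or limma-voom. Circadian clock genes, in animals killed in the morning, had 4 of 19 higher in males, Tef, Per3, Hlf and Nr1d2, and 2 in females, Nfil3 and Cry1. The male count was 2 without male replicate 5, and the female count was 1 without female replicate 1 or 2 or any one male library other than replicate 2. DESeq2 called 5 in each direction and limma-voom 4. With either covariate, or without female replicates 1 and 2 or 1 and 4, at most 2 were higher in males and at most 1 in females. Per3 differed by -1.06 ± 0.23 (SE, adjusted p = 0.0171), a call lost without male replicate 5 (adjusted p = 0.0541), and Tef by -0.89 ± 0.13 (SE, adjusted p = 0.0014). Of 20 genes of the renin-angiotensin and kallikrein list 3, Mas1, Enpep and Prcp, were higher in males and 1, Bdkrb2, in females, with a list median of 0.29 beside 0.04 over all autosomal genes. Mas1 differed by -3.19 ± 0.50 (SE, adjusted p = 0.00288). Bdkrb2 lost its call without female replicate 1 or 2 or any one male library (adjusted p up to 0.0738), and the list had 2 female-higher genes without female replicate 2. DESeq2 called 5 higher in females and 3 in males, the fit without female replicates 1 and 2 called 4 and 2, and either covariate or the fit without female replicates 1 and 4 called 1 and 1.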
